A study of Mus musculus with 21 samples.

Results

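The genes described are 10 subunits of the leukocyte integrins in cultured mouse macrophages: Itgax, Itgam, Itgal, Itga4, Itga5, Itga6, Itgav, Itgb1, Itgb2 and Itgb7. They were taken from a table of 47069 genes by gene name. The 10 names matched 11 rows, because a second row also carries the name Itgam. All 10 passed the filter on low counts, among 14473 tested genes. Cells came from the bone marrow of C57BL/6 mice, spent 5 days in culture with the growth factor M-CSF, supplied as conditioned medium, and were then exposed for 36 h to IL-33, to IL-4 or to neither. The 21 libraries formed 7 groups of 3. Wild-type C57BL/6 cells were left untreated or given IL-33 or IL-4. Cells of a strain labelled ST2-/-, lacking the IL-33 receptor chain encoded by Il1rl1, received no cytokine or IL-33, as did cells of a strain labelled Cx3cr1CRExGata3fl/fl, in which a Cre recombinase placed at the Cx3cr1 gene, active in cells of the monocyte and macrophage lineage, is meant to delete the floxed gene of the transcription factor Gata3. The ages and sexes of the mice are not stated in the labels, which also do not say whether the 3 libraries of a group came from separate animals, so p-values measure the spread between libraries and may be partly technical.

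Integrins are receptors at the cell surface that hold cells to each other and to the extracellular matrix, and each is built from 1 alpha and 1 beta chain. The beta 2 chain (Itgb2, CD18) is found on leukocytes. It pairs with alpha L (Itgal, CD11a) to form LFA-1 and with alpha M (Itgam, CD11b) to form Mac-1, a complement receptor. It also pairs with alpha X (Itgax, CD11c), a chain best known from dendritic cells and tissue macrophages. The beta 1 chain (Itgb1) pairs with alpha 4 (Itga4), alpha 5 (Itga5), alpha 6 (Itga6) and alpha v (Itgav). The beta 7 chain (Itgb7) shares alpha 4, and the alpha 4 beta 7 pair is known as the gut-homing receptor. A chain reaches the surface as part of a pair, so mRNA levels of single chains are not levels of surface receptors.

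The libraries held between 32626469 and 48743646 counted reads. Levels are in CPM (each count scaled to a common library total) after TMM scaling, and a gene is called when the adjusted p of the edgeR quasi-likelihood test is under 0.05. Neither deletion was checked by the counts of its target gene. Il1rl1 stood between 14.2 and 20.4 CPM in the ST2-/- libraries, against 14.6 to 17.3 CPM in cytokine-free wild-type libraries, and Gata3 held 18 counts or fewer in every library of the floxed strain and 7 or fewer in cytokine-free wild-type libraries. These 4 groups are therefore called ST2KO-labelled and floxed-labelled. The female-specific RNA Xist stood between 277 and 376 CPM in the 6 floxed-labelled libraries and held 2 counts or fewer in each of the other 15. In comparisons of the floxed-labelled with the wild-type groups, sex and genotype thus cannot be told apart. Among the 12 genes of a macrophage marker list, none was at 0 in any group, and Adgre1 (F4/80) averaged between 858 and 2183 CPM over the groups. In wild-type cells the sum of that list was 30653 to 33562 CPM without cytokine, 39365 to 43354 CPM under IL-33 (5 genes higher, 3 lower) and 17021 to 18735 CPM under IL-4 (3 higher, 7 lower). In these 2 comparisons with cytokine-free cells, 35.4% and 47.6% of all tested genes were called. Lyz2 (lysozyme) was the main part of the sum, with means of 21331, 29655 and 9890 CPM.

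The genes Itgal, Itgam, Itgax and Itgad lie on the plus strand of chromosome 7 (GRCm38, GENCODE M21), Itgal at chr7:127296260-127335138, Itgam at chr7:128062640-128118491, Itgax at chr7:128129547-128150657 and Itgad at chr7:128154376-128223816. Itgam and Itgax are neighbours. As given further on, IL-33 raised them by similar amounts, but IL-4 raised Itgax far more than Itgam. The 250 bases before the RefSeq start of each (GRCm38.p6, plus strand, chr7:128062390-128062639 and chr7:128129300-128129549) are shown for that reason, in lower case with matches to the searched motifs in capitals.
Itgam: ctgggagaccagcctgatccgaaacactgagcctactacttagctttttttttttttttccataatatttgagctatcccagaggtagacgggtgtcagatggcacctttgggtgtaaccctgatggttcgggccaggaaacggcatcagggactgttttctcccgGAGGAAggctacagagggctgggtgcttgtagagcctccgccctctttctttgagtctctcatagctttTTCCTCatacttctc
Itgax: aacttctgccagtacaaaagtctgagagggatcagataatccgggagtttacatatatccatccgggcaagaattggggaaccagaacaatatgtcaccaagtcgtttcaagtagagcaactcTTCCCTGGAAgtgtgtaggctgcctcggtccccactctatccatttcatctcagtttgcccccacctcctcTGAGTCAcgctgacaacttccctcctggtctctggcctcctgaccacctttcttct
Both strands were searched for 5 short motifs: TTCNNNNGAA (STAT6 type), TTCNNNGAA (type bound by other STAT factors), TGANTCA (AP-1 type), TGTGGT (RUNX type) and GAGGAA (PU.1 type). The Itgax window held TTCCCTGGAA, of the STAT6 type, beginning 127 bases before the start, and TGAGTCA, of the AP-1 type, beginning 56 bases before it. In the Itgam window the only matches were of the PU.1 type, GAGGAA at 84 bases and its reverse complement TTCCTC at 15 bases before the start. The marked matches do not overlap each other. Over 32851 promoter windows of this length, the STAT6 type was found in 5.85%, the AP-1 type in 6.75%, the PU.1 type in 23.3%, the RUNX type in 14% and the other STAT type in 7.02%. A match describes the letters of the window and does not show that a factor binds there. RefSeq windows matched 7 of the 10 genes, and the other 5 of those 7 held no STAT6-type or AP-1-type match. Itgal, Itga6 and Itgb2 had no window and were not searched, although IL-4 changed each of them more than 2-fold.

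Per length of exon (RPKM, reads scaled to exon length and library size), the 2 common beta chains had the highest levels of the 10 subunits in the mean over all 21 libraries, Itgb2 at 337 RPKM and Itgb1 at 150 RPKM. In wild-type cells with IL-4, Itgax (206 RPKM) stood above Itgb1 (164 RPKM). The means of Itgax and Itgam over all libraries were 53.3 and 50.8 RPKM, but that order came from the IL-4 libraries: the ratio of Itgax to Itgam averaged 4.75 there and between 0.383 and 0.675 in the other 6 groups, so that Itgam exceeded Itgax in 6 of 7 groups. Below them were Itga5 at 23.8, Itgb7 at 22.6, Itga6 at 20.2, Itga4 at 10.1, Itgav at 6.77 and Itgal at 1.91 RPKM. The spread over groups differed widely between subunits. The group mean of Itgax differed 15.5-fold between its highest and lowest group, that of Itgal 7.74-fold and that of Itga6 5.42-fold, whereas Itgb1 differed 1.18-fold and Itgav 1.32-fold. The Itgam level is uncertain: 68.7% of its exon bases also belong to the second row named Itgam, an overlapping transcript unit on the same strand that held at most 7 counts in any library, so reads from the shared bases may not have been counted to either row. For Itgax, 8.02% of its 50-base sequences also occur in Itgad, which held between 2 and 44 counts per library. Opposite-strand genes cover 8.0% of the exon bases of Itga4 and 5.9% of those of Itgav, and the strand setting used in counting is not given in the sources used here.

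**Figure D1:**
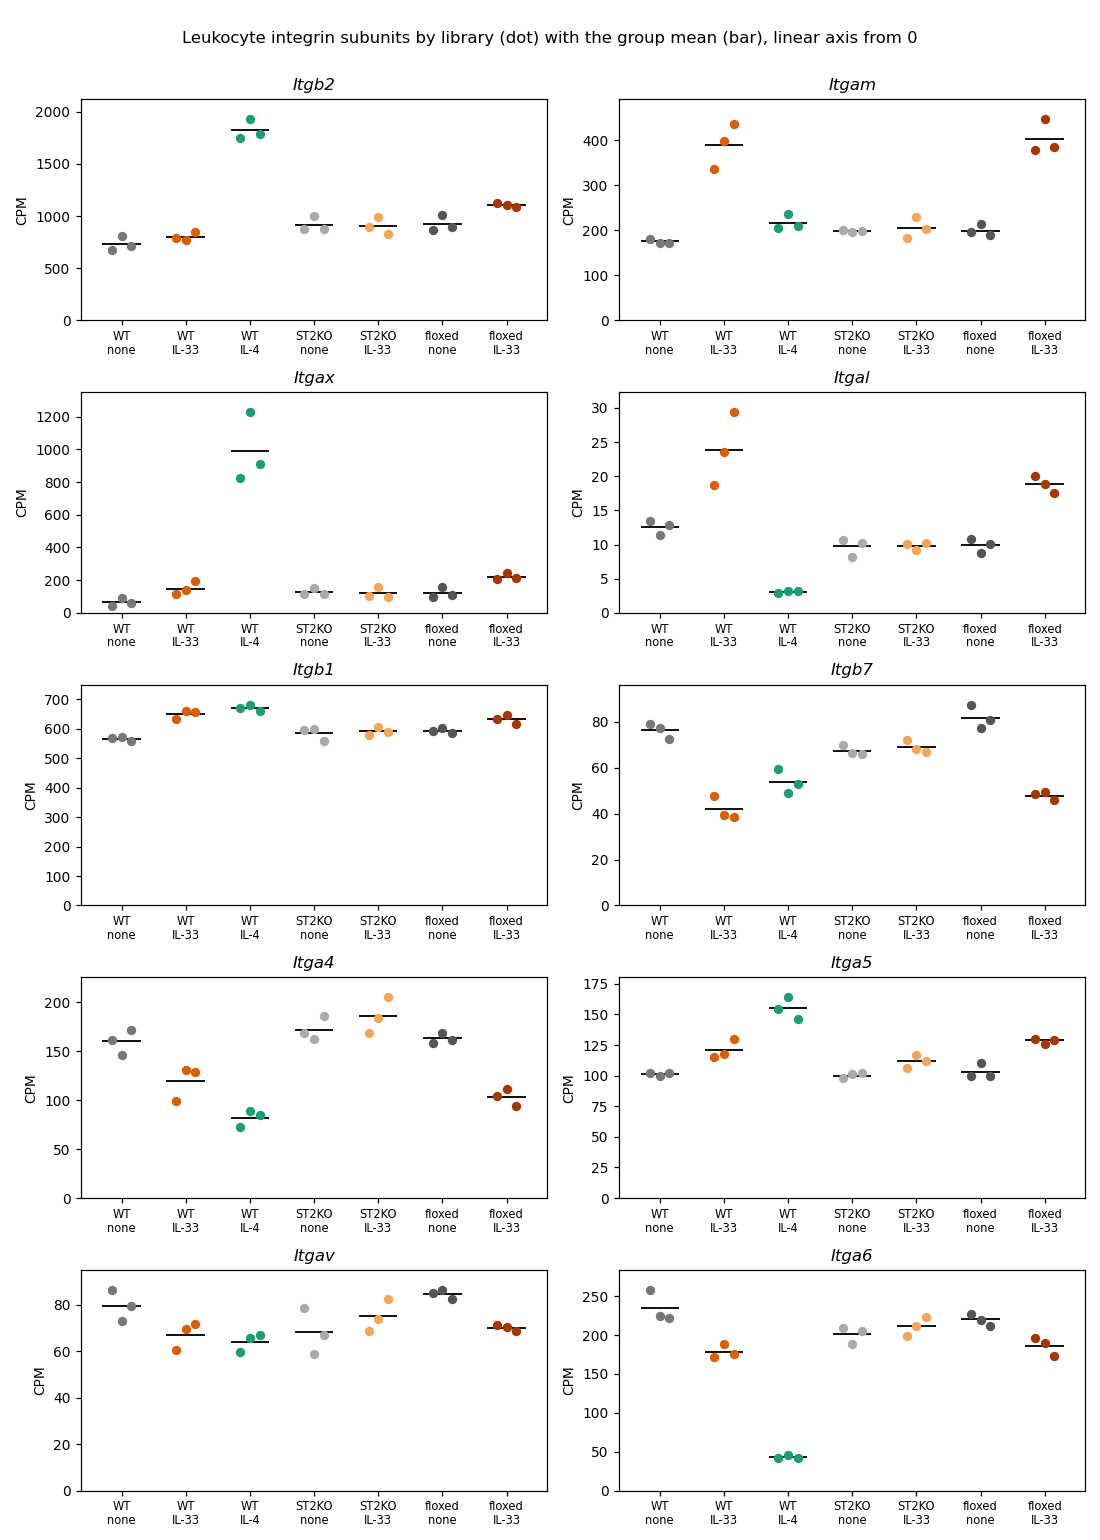
Level of each integrin subunit mRNA in CPM (vertical axes, from 0) in the 21 libraries, with 1 dot per library, a bar at the group mean and groups along the horizontal axis. Itgax and Itgb2 stand highest and Itgal, Itga4 and Itga6 lowest in wild-type cells with IL-4, while Itgam is high only in the 2 IL-33 groups that responded, wild-type (335 to 435 CPM) and floxed-labelled (379 to 446 CPM).

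IL-33 changed 9 of the 10 subunits in wild-type cells: 5 rose, 4 fell and Itgb2 did not pass the test. Among all tested genes, 35.4% were called in this comparison, 18.5% higher and 16.9% lower. The median size of the log2 change was 0.41 over the 10 subunits and 0.23 over all tested genes. The libraries of the 2 groups did not overlap for 9 subunits, against 46.4% of all tested genes.

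The 3 alpha chains that pair with beta 2 rose with IL-33. Itgam was at 180, 171 and 172 CPM without cytokine and at 335, 399 and 435 CPM with IL-33. All libraries with IL-33 lay above all without, a 2.23-fold difference (log2 1.16 ± 0.09 SE, adjusted p = 5.58e-10). Itgax was at 41.3, 89.2 and 60.2 CPM without cytokine and at 114, 137 and 198 CPM with IL-33. Its groups did not overlap either, but the libraries differed more among themselves, and the 2.35-fold rise had an SE of 0.25 (log2 1.23, adjusted p = 0.000438). Itgal, at 13.4, 11.4 and 12.9 CPM without cytokine, reached 18.7, 23.6 and 29.4 CPM, a 1.9-fold rise (log2 0.93 ± 0.13, adjusted p = 5.36e-06). By contrast their shared partner Itgb2 was at 676, 812 and 709 CPM without cytokine and at 786, 767 and 848 CPM with IL-33. These ranges overlapped, and the log2 change of 0.13 (95% confidence interval -0.03 to 0.28, adjusted p = 0.199) did not pass the test.

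The subunits of the alpha 4 receptors fell with IL-33, apart from beta 1. Itgb7 went from 79, 77.2 and 72.3 CPM to 47.6, 39.3 and 38.4 CPM. Every IL-33 library was below every cytokine-free one, and the 1.82-fold fall (log2 -0.87 ± 0.08, adjusted p = 5.47e-09) was the largest fall of the 10 subunits. Itga4, which pairs with either beta chain, was at 161, 146 and 172 CPM without cytokine and at 99.2, 131 and 129 CPM with IL-33 (log2 -0.42 ± 0.10, adjusted p = 0.00164). Itgb1 moved the other way by a small amount, from 568, 571 and 559 CPM to 633, 659 and 657 CPM (log2 0.20 ± 0.04, adjusted p = 0.000193). The ratio of Itgb7 to Itgb1 in RPKM accordingly stood at 0.198 ± 0.00713 (SD, n = 3) without cytokine and at 0.095 ± 0.0138 with IL-33.

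Among the matrix receptors of the beta 1 group, Itga5, the alpha chain of the fibronectin receptor, rose from 102, 99.7 and 102 CPM to 115, 118 and 130 CPM with IL-33 (log2 0.26 ± 0.05, adjusted p = 0.000735). Itga6, the alpha chain of laminin receptors, fell from 258, 224 and 222 CPM to 172, 188 and 176 CPM (log2 -0.40 ± 0.06, adjusted p = 3.48e-05). For both, the groups did not overlap. Itgav, the alpha chain of receptors for vitronectin and other ligands, was at 86.5, 73.3 and 79.4 CPM without cytokine and at 60.6, 69.6 and 71.6 CPM with IL-33. Its fall (log2 -0.25 ± 0.09, adjusted p = 0.0328) was no longer called without replicate 1 or 3 of the cytokine-free group (adjusted p = 0.149 and 0.0614) or without replicate 1 of the IL-33 group (0.155).

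IL-4 changed all 10 subunits in wild-type cells, 5 upward and 5 downward, where 47.6% of all tested genes were called, 25.1% higher and 22.5% lower. The median size of the log2 change was 0.79 over the subunits and 0.31 over all tested genes, and 4 subunits changed more than 2-fold. No subunit's IL-4 libraries overlapped its cytokine-free libraries, which held for 56.1% of all tested genes.

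Itgax rose most. Its 3 libraries with IL-4 held 823, 1228 and 913 CPM, against 41.3, 89.2 and 60.2 CPM without cytokine. The lowest IL-4 library thus lay far above the highest cytokine-free one, and the rise was 15.5-fold (log2 3.96 ± 0.27, adjusted p = 4.88e-11). Itgb2 was at 1751, 1926 and 1791 CPM with IL-4, 2.49-fold above the cytokine-free libraries (log2 1.32 ± 0.08, adjusted p = 2.37e-12). Itgam stood at 205, 235 and 209 CPM. That small rise (log2 0.31 ± 0.09, adjusted p = 0.00522) lost its call without replicate 2 of the IL-4 group (log2 0.23, adjusted p = 0.0595). Itgal went down, to 2.88, 3.19 and 3.2 CPM, a 4.05-fold fall (log2 -2.02 ± 0.15, adjusted p = 1.4e-10).

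Other subunits with large falls under IL-4 were Itga6 and Itga4. Itga6 was at 42, 46.1 and 42 CPM, 5.42-fold below its cytokine-free level (log2 -2.44 ± 0.07, adjusted p = 1.43e-17). Itga4 was at 72.4, 88.8 and 84.6 CPM (log2 -0.96 ± 0.10, adjusted p = 2.76e-08). Smaller falls were seen for Itgb7 at 59.3, 49 and 52.9 CPM (log2 -0.51 ± 0.07) and for Itgav at 59.6, 65.9 and 67 CPM (log2 -0.31 ± 0.09). Itga5 rose to 154, 164 and 146 CPM (log2 0.61 ± 0.05) and Itgb1 to 669, 681 and 660 CPM (log2 0.24 ± 0.04). As Itga6 fell while Itga5 rose, the ratio of Itga6 to Itga5 in RPKM was 1.27 ± 0.107 (SD, n = 3) without cytokine, 0.809 ± 0.0651 under IL-33 and 0.153 ± 0.00392 under IL-4.

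Direct comparison of the 2 cytokines in wild-type cells called 8 of the 10 subunits, 4 higher with IL-33 and 4 higher with IL-4, where 39.9% of all tested genes were called, 19.2% higher with IL-33 and 20.7% lower. The libraries of the 2 cytokines did not overlap for 9 subunits, against 49% of all tested genes. Itgal was 7.7-fold higher with IL-33 than with IL-4 (log2 2.94 ± 0.15, adjusted p = 2.54e-13), Itga6 was 4.12-fold higher, Itgam 1.8-fold and Itga4 1.46-fold. On the other side, Itgax was 6.61-fold lower with IL-33 than with IL-4 (log2 -2.73 ± 0.26, adjusted p = 1.04e-08), Itgb2 2.28-fold lower, and Itga5 and Itgb7 each 1.28-fold lower. Itgav and Itgb1 differed by 0.07 and -0.04 on the log2 scale, with confidence intervals of -0.12 to 0.25 and -0.12 to 0.03. Itgal and Itgam, which both rose with IL-33, therefore parted under IL-4, where Itgal fell and Itgam rose slightly.

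**Figure D2:**
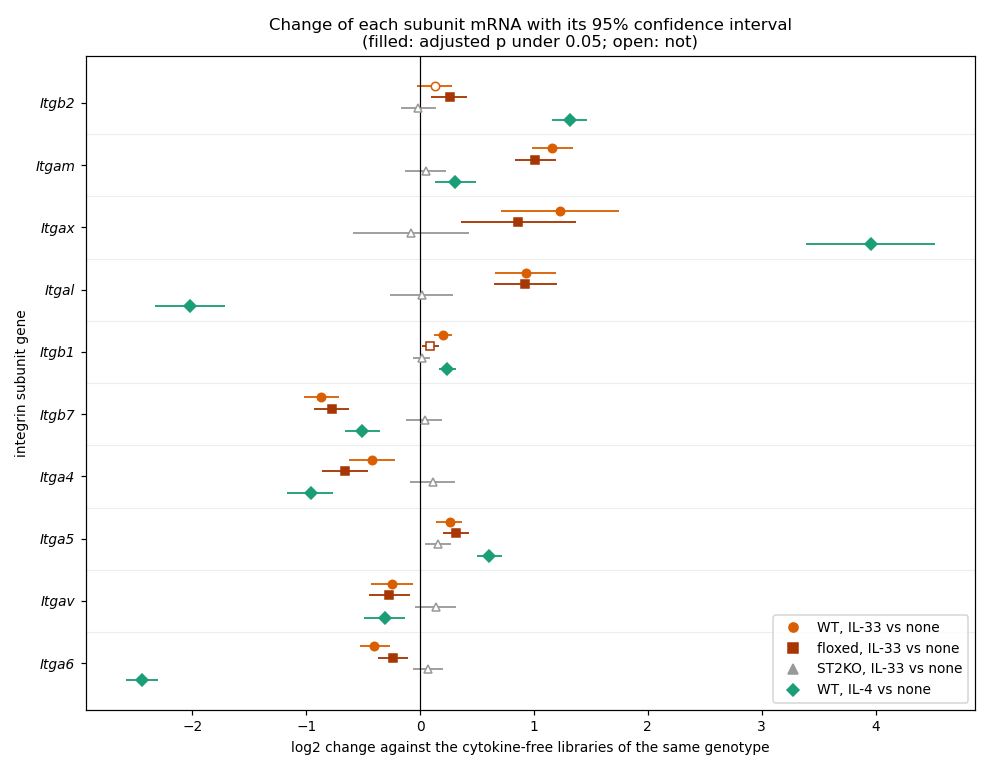
Log2 change of each subunit (rows) against the cytokine-free libraries of the same genotype, with its 95% confidence interval, for IL-33 in the 3 genotypes and IL-4 in wild-type cells; filled symbols passed the test. The 10 intervals of the ST2KO-labelled cells lie near 0, those of wild-type and floxed-labelled cells with IL-33 lie close together, and IL-4 reaches from -2.44 for Itga6 to 3.96 for Itgax.

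The shares of the alpha chains that can pair with beta 2 changed with IL-4 and little with IL-33. Of the summed RPKM of Itgal, Itgam, Itgax and Itgad, Itgam held 77.1, 62.6 and 70.3% in the cytokine-free wild-type libraries and 71.5, 71.3 and 65.4% with IL-33. With IL-4 it held 19.2, 15.4 and 17.9%. Itgax held 18.5, 34.2 and 25.7% without cytokine, 25.4, 25.5 and 31.2% under IL-33, and 80.6, 84.4 and 81.8% under IL-4. The IL-4 libraries were thus apart from all others for both chains, while the cytokine-free and IL-33 libraries overlapped. Itgal held at most 4.38% in any library, and Itgad, the fourth alpha partner of beta 2, at most 0.177%.

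These shares depend on how much of Itgam was counted. If only its 1574 exon bases that no other gene covers could gather reads, the Itgax share would be 10.5% ± 3.78 (SD, n = 3) without cytokine, 10.9% ± 1.67 under IL-33 and 59.5% ± 3.25 under IL-4, an alternative added after the data had been seen. The same setting decides how Itgb2 stands against the sum of its alpha partners. By the full exon length, the ratio was 4.8 ± 0.0798 without cytokine, 2.37 ± 0.347 under IL-33 and 2.44 ± 0.316 under IL-4. By the unshared length it was 1.9 ± 0.15, 0.939 ± 0.119 and 1.76 ± 0.177, so that the ratio with IL-33 lay below that without cytokine by either length, while the IL-4 and cytokine-free libraries overlapped by the unshared length only. Against the other common beta chain, the ratio of Itgb2 to Itgb1 was 1.73 ± 0.158 without cytokine, 1.65 ± 0.0862 under IL-33 and 3.64 ± 0.141 under IL-4.

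**Figure D3:**
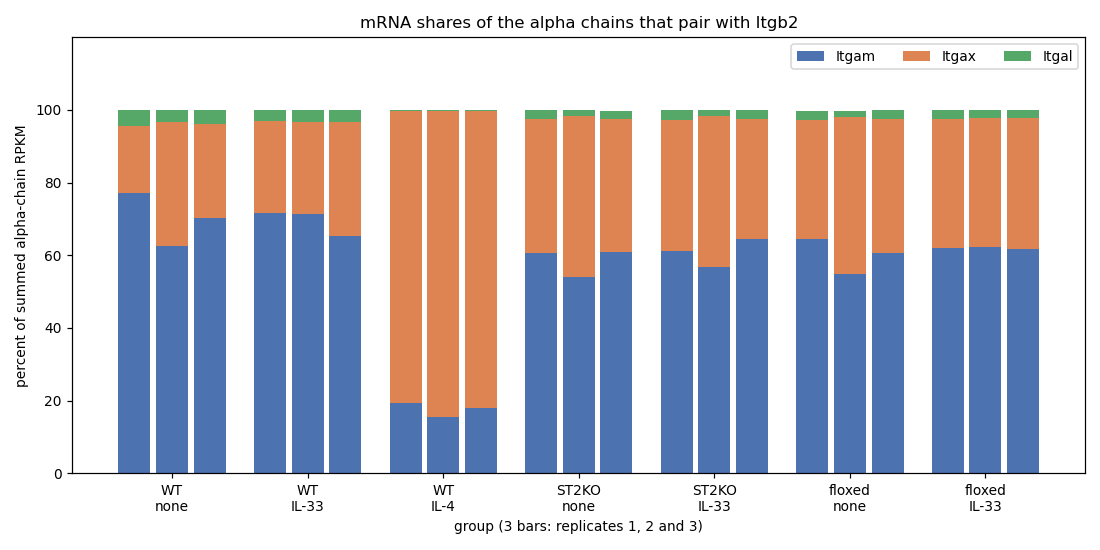
Percent of the summed RPKM of the alpha chains that pair with Itgb2 (vertical axis) in each of the 21 libraries, with 3 bars per group and colours for Itgam, Itgax and Itgal; Itgad, at most 0.177%, is not drawn. Itgax holds between 80.6 and 84.4% in the 3 wild-type libraries with IL-4 and at most 44.2% in every other library.

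Markers of other cell types also changed in wild-type cells, where 35.4% of all tested genes were called with IL-33 and 47.6% with IL-4. Of 10 dendritic cell markers, 2 rose (Batf3 and Zbtb46) and 1 fell (Siglech) with IL-4, a count below that share. With IL-33, 5 of the 10 rose (Batf3, Zbtb46, Ccr7, Cd209a and Dpp4) and 1 fell (Cd24a). The summed level of the 10 was 31.7 to 35.1 CPM without cytokine, 31.6 to 37.8 CPM under IL-33 and 65.7 to 69.7 CPM under IL-4. Batf3, a transcription factor of dendritic cells, accounted for most of the rise with IL-4, from a mean of 4.09 to 34.5 CPM, whereas Flt3, the receptor that marks dendritic cells and their precursors, averaged 1.4 and 0.92 CPM, and Clec9a and Xcr1 of conventional dendritic cells averaged below 0.4 CPM in both groups. Of 12 neutrophil markers, 11 were tested and 8 rose with IL-33. Their sum was 34.4 to 40 CPM without cytokine, 201 to 284 CPM under IL-33 and 33.5 to 35 CPM under IL-4. Mmp8, a collagenase, made up most of the sum with IL-33, at a mean of 189 CPM, against 11.7 CPM without cytokine. Ly6g, which defines mouse neutrophils, was at 0 without cytokine and averaged 0.017 CPM with IL-33. The sum of 8 megakaryocyte and erythroid markers was 13.9 to 22.3 CPM without cytokine, 164 to 216 CPM under IL-33 and 12.4 to 14.5 CPM under IL-4. With IL-33 both tested genes rose, Pf4 10.5-fold and Ppbp 7.27-fold, while Hbb-bs was at 0 with and without IL-33. The sum of 11 lymphocyte markers was 152 to 179 CPM without cytokine, 129 to 141 CPM under IL-33 and 317 to 326 CPM under IL-4. Il7r made up nearly all of it (165 and 321 CPM), and Cd3e averaged below 0.4 CPM. The sum of 4 eosinophil markers was 9.51 to 14.6 CPM without cytokine, 24.6 to 27.8 CPM under IL-33, with Ccr3 up 4.61-fold, and 30.7 to 41.2 CPM under IL-4, with Siglecf up 4.12-fold. Mast cell and basophil markers summed to at most 11.5 CPM and stromal markers to at most 8.91 CPM in any wild-type library. The part of these genes in the changes of the subunits was not tested. In bulk RNA, fewer cells of a type and less RNA per cell cannot be told apart.

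In ST2KO-labelled cells, IL-33 called none of the 10 subunits by the edgeR test, and 0% of all tested genes. Groups did not overlap for 1 subunit, Itga5, against 6.96% of all tested genes. At an unadjusted p under 0.05 there were the same subunit and 507 genes, and DESeq2 and limma-voom also called no gene. Itgam, for example, was at 201, 195 and 198 CPM without cytokine and at 183, 229 and 202 CPM with IL-33, and Itgb7 was at 69.7, 66.3 and 65.9 CPM and at 72.1, 68.1 and 67 CPM. Both pairs of groups overlapped. The log2 changes of the 10 subunits lay between -0.08 (Itgax) and 0.16 (Itga5), with confidence intervals that reached -0.59 to 0.43 for Itgax, the widest, and 0.04 to 0.27 for Itga5. Itgam had an interval of -0.13 to 0.23 and Itgb7 one of -0.12 to 0.19, both short of the wild-type changes.

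The difference between the IL-33 responses of ST2KO-labelled and wild-type cells was tested itself, by an interaction term. It was called for 8 of the 10 subunits, where 22.7% of all tested genes were called, 10.6% with a higher and 12.1% with a lower response in the ST2KO-labelled cells. The response of the ST2KO-labelled cells was lower for Itgax (log2 -1.31 ± 0.35, adjusted p = 0.00788), Itgam (-1.11 ± 0.12, 5.6e-07), Itgal (-0.91 ± 0.19, 0.000857) and Itgb1 (-0.18 ± 0.05, 0.0147). It was higher for the subunits that fell in the wild type, Itgb7 (0.90 ± 0.11, adjusted p = 1.19e-06), Itga4 (0.53 ± 0.14, 0.00656), Itga6 (0.47 ± 0.09, 0.000531) and Itgav (0.38 ± 0.12, 0.0285). The 2 weakest differences kept their direction but lay near the threshold. That of Itgav lost its call without replicate 1 of either wild-type group, replicate 2 or 3 of the cytokine-free or replicate 3 of the IL-33 ST2KO-labelled group (log2 0.29 to 0.38, adjusted p between 0.0506 and 0.0898), and in a fit on the compared groups only (log2 0.38, 0.0682). That of Itgb1 was lost without wild-type replicate 3 of the cytokine-free or 2 of the IL-33 group or ST2KO-labelled replicate 1 or 2 of the cytokine-free group (log2 -0.16 in each case, 0.0522 to 0.0561), and with upper-quartile scaling (log2 -0.15, 0.0577) or no filter on low counts (log2 -0.19, 0.0858). The difference for Itga5 (log2 -0.10, 95% interval -0.26 to 0.06) and for Itgb2 (-0.15, interval -0.36 to 0.07) did not pass the test.

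Floxed-labelled cells responded to IL-33 with 9 called subunits, 5 higher and 4 lower, where 33.4% of all tested genes were called, 17.1% higher and 16.3% lower. Groups did not overlap for any of the 10 subunits, against 45% of all tested genes. Itgam went from 197, 213 and 189 CPM to 379, 446 and 384 CPM (2.02-fold, log2 1.01 ± 0.09, adjusted p = 5.22e-09), and Itgal from 10.8, 8.78 and 10.1 CPM to 20.1, 18.8 and 17.5 CPM (1.9-fold, log2 0.92 ± 0.13, adjusted p = 7.57e-06). Itgb7 fell from 87.4, 77.2 and 80.8 CPM to 48.4, 49.3 and 45.8 CPM (1.71-fold, log2 -0.77 ± 0.08, adjusted p = 3.42e-08). All of these groups were apart. Itgax rose from 95.2, 160 and 110 CPM to 208, 243 and 215 CPM (log2 0.86 ± 0.24, adjusted p = 0.00832), a call lost by a small margin without replicate 1 of the cytokine-free group (adjusted p = 0.0501). Itgb2 passed the test here (log2 0.26 ± 0.07, adjusted p = 0.00924), and Itgb1 did not (log2 0.09 ± 0.04, adjusted p = 0.0575), although it was called by DESeq2 (0.0211), by limma-voom (0.042), with RLE factors (0.0436), with a stricter filter on low counts (0.0376) and without replicate 3 of the IL-33 group (0.0375). Itga4 fell by 0.66, Itga6 by 0.24 and Itgav by 0.27 on the log2 scale, and Itga5 rose by 0.32. The calls of Itgav and Itga6 were lost when single libraries were left out, that of Itgav without replicate 1 or 2 of the cytokine-free group or 2 or 3 of the IL-33 group (adjusted p between 0.0515 and 0.0726), that of Itga6 without replicate 3 of the IL-33 group (0.059).

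No subunit was called by edgeR for a difference between the floxed-labelled and wild-type responses to IL-33, where 1.22% of all tested genes were called, 0.539% with a higher and 0.677% with a lower response in the floxed-labelled cells. At an unadjusted p under 0.05 there were 0 subunits, and DESeq2 and limma-voom also called 0. The estimates for Itgal, Itgb7 and Itgam were 0.00, 0.09 and -0.14 on the log2 scale, with confidence intervals of -0.39 to 0.38, -0.13 to 0.31 and -0.40 to 0.11. For Itgax the estimate of -0.37 had an interval from -1.09 to 0.35, which leaves room for a response more than 2-fold smaller as well as for a larger one.

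Without cytokine, 2 subunits were higher in ST2KO-labelled than in wild-type cells, where 1.35% of all tested genes were called, 0.871% higher and 0.484% lower. The same 2 were higher in floxed-labelled cells, where 9.85% of all tested genes were called, 5.6% higher and 4.25% lower. Groups did not overlap for 6 subunits in the ST2KO-labelled comparison, against 20.7% of all tested genes, and for 5 in the floxed-labelled one, against 31%. These 2 comparisons share the wild-type libraries. Itgax was at 117, 152 and 113 CPM in ST2KO-labelled and at 95.2, 160 and 110 CPM in floxed-labelled cells, against 41.3, 89.2 and 60.2 CPM in wild-type cells. All 6 libraries of the labelled strains lay above the 3 wild-type ones (log2 1.00 ± 0.25, adjusted p = 0.0452, and 0.94 ± 0.25, adjusted p = 0.0189). Itgb2 was at 872, 1000 and 876 CPM and at 865, 1014 and 890 CPM in the 2 strains, again above all wild-type libraries (log2 0.32 ± 0.07, adjusted p = 0.0326, and 0.33 ± 0.07, adjusted p = 0.00604). In the ST2KO-labelled comparison, the Itgax call was lost without replicate 1 or 3 of the wild-type group or any 1 of the 3 ST2KO-labelled libraries, with adjusted p between 0.0607 and 0.281, and the Itgb2 call without wild-type replicate 1 or 3 or ST2KO-labelled replicate 2 or 3, with adjusted p between 0.0548 and 0.255. A stricter filter on low counts also ended the Itgax call (0.051), and a fit on the compared groups only that of Itgb2 (0.058). DESeq2 also called Itga6 lower in the ST2KO-labelled cells (log2 -0.23, adjusted p = 0.0281), which edgeR did not (0.0863). In the floxed-labelled comparison, Itgax lost its call without wild-type replicate 1 (adjusted p = 0.124) or 3 (0.0785) or floxed-labelled replicate 2 (0.143), and Itgb2 without wild-type replicate 1 (0.0568) or floxed-labelled replicate 2 (0.0615).

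With IL-33, 6 subunits were called between ST2KO-labelled and wild-type cells, 3 higher and 3 lower, where 37% of all tested genes were called, 17.9% higher and 19.1% lower. Groups did not overlap for 6 subunits, against 44.9% of all tested genes. Itgal was 2.43-fold lower in the ST2KO-labelled cells, at 10.1, 9.15 and 10.3 CPM against 18.7, 23.6 and 29.4 CPM, and Itgam was 1.9-fold lower. Itgb7 was 1.65-fold higher and Itga4 1.55-fold higher. Itga6 and Itgb1 were also called, Itgb1 neither with upper-quartile scaling (adjusted p = 0.0529) nor in a fit on the compared groups only (0.0645). Itgb2 was not called by the reported edgeR fit (log2 0.18, adjusted p = 0.0664). It was called higher with upper-quartile scaling (0.0268), a replicate block (0.0215) or no filter (0.0033), and without replicate 3 of either IL-33 group (0.0407 and 0.021). For Itgax, at 103, 160 and 98.6 CPM against 114, 137 and 198 CPM, the groups overlapped and the log2 difference of -0.31 (95% interval -0.82 to 0.20) did not pass the test. The cytokine-free ST2KO-labelled libraries had been above the wild-type ones for this gene. Between floxed-labelled and wild-type cells with IL-33, Itgb2 alone was called, at 1124, 1105 and 1084 CPM against 786, 767 and 848 CPM (log2 0.47 ± 0.07, adjusted p = 0.000196), where 11.3% of all tested genes were called, 5.5% higher and 5.85% lower. Groups did not overlap for 2 subunits, Itgax and Itgb2, against 28.1% of all tested genes. Itgax, at 208, 243 and 215 CPM against 114, 137 and 198 CPM, did not pass (log2 0.57 ± 0.24, adjusted p = 0.145) but did under 3 alternatives, among them a fit on the compared groups only (0.0402). When replicate 1 of the wild-type IL-33 group was left out, 4 subunits were called: Itgal, Itga4 and Itgb7 besides Itgb2. That setting called 1458 genes, against 1642 in the reported fit.

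Ordered over the 7 groups, Itgax ran from cytokine-free wild-type cells (63.6 CPM) through 4 groups whose libraries overlapped from 1 to the next, ST2KO-labelled with IL-33 (120 CPM), floxed-labelled without cytokine (122 CPM), ST2KO-labelled without cytokine (127 CPM) and wild-type with IL-33 (149 CPM), to floxed-labelled with IL-33 (222 CPM) and wild-type with IL-4 (988 CPM). Each of the last 2 stood apart from its neighbours. The Itgam order began with cytokine-free wild-type cells (175 CPM), continued with 4 groups between 198 and 216 CPM whose neighbours overlapped, and ended with the overlapping wild-type and floxed-labelled IL-33 groups (390 and 403 CPM). Itgal was lowest with IL-4 (3.09 CPM), lay between 9.75 and 9.9 CPM in 3 overlapping groups of the labelled strains, and was highest in floxed-labelled and wild-type cells with IL-33 (18.8 and 23.9 CPM, overlapping). For Itga6, IL-4 alone stood apart at 43.4 CPM, and the other 6 groups, from 178 to 235 CPM, each overlapped the next. Itga4 was likewise lowest with IL-4 (81.9 CPM), followed by the overlapping IL-33 groups of the floxed-labelled and wild-type cells (103 and 120 CPM) and by 4 overlapping groups between 160 and 186 CPM. Itgb7 was lowest in wild-type and floxed-labelled cells with IL-33 (41.8 and 47.8 CPM) and highest without cytokine in the same genotypes (76.2 and 81.8 CPM). Every neighbouring pair of groups overlapped for Itgav, between 64.2 and 84.6 CPM. Itga5 ran from 100 to 129 CPM in 6 groups that overlapped from 1 to the next, below IL-4 at 155 CPM. Itgb2 ran from 732 to 923 CPM in 5 groups that overlapped from 1 to the next, then to floxed-labelled cells with IL-33 at 1105 CPM and IL-4 at 1823 CPM. Itgb1 fell into cytokine-free and ST2KO-labelled groups between 566 and 592 CPM, the floxed-labelled and wild-type IL-33 groups at 632 and 650 CPM, and IL-4 at 670 CPM.

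Across the 7 group means on the log2 scale, Itgax and its partner Itgb2 had a Pearson correlation of 0.97. The alpha partners Itgam and Itgal did not follow Itgb2, at 0.05 and -0.76. Among other pairs, Itgax and Itga6 had one of -0.95, Itga4 and Itga5 one of -0.93, and Itgam and Itgb7 one of -0.88. These values describe 7 points that share libraries and depth, and for Itgax, Itgb2 and Itga6 the IL-4 group lies far from the rest. Picking the best 2 of 1257 candidates over 7 points also favours high correlations. The genes most alike in pattern were sought among 1257 genes with a range of at least 1 log2 unit, for the 6 subunits with such a range. They were Mrps28 (0.992) and Cd44 (0.989) for Itgax, Msr1 (0.996) and Nqo1 (0.994) for Itgam, Fcgr1 (0.998) and Tmem8 (0.994) for Itgal, Dbp (0.993) and Tagap (0.989) for Itga4, C5ar1 (0.997) and Mvb12b (0.996) for Itga6, and Galnt9 (0.994) and Il27ra (0.988) for Itgb2.

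Within groups, the subunits differed in which library stood highest. Itgb1 was highest in replicate 2 in 7 of 7 groups, Itgax in 6 and Itgb2 in 5. The other subunits were so in fewer: Itgam and Itga4 in 4, Itga5 in 3, Itga6 in 2, Itgav and Itgb7 in 1 and Itgal in 0. For Itgb1 the gaps were small, 571 against 568 CPM without cytokine and 659 against 657 CPM with IL-33 in wild-type cells. In 6 of 7 groups Itgax had the largest coefficient of variation of the 10 subunits, between 16.9 and 38%. In floxed-labelled cells with IL-33 its value was 8.32%, below the 9.24% of Itgam. In both ST2KO-labelled groups, the replicate with the most Itgax also had the highest sum of dendritic cell markers (46.1 and 44.2 CPM, against 30.7 to 34.3 CPM in the other 4 libraries), and this held too without cytokine in floxed-labelled cells (35 against 28.7 and 27.2 CPM) and wild-type cells (35.1 against 31.7 and 31.9 CPM), and by a small margin with IL-4 (69.7 against 65.7 and 69.5 CPM). With IL-33 it did not hold in wild-type cells, where replicate 3 had the most Itgax and replicate 1 the highest sum (33.1 and 37.8 CPM), and in floxed-labelled cells 2 libraries tied at 28.2 CPM. The part of those markers in the spread of Itgax was not tested.

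Outside the 10 subunits, 12 of 16 other integrin subunits could be tested. With IL-33, 4 rose (Itga1, Itga2b, Itgae and Itgb8) and 3 fell (Itga8, Itgb3 and Itgb5). With IL-4, 5 rose (Itga1, Itga2b, Itgad, Itgb3 and Itgb8) and 4 fell (Itga8, Itga9, Itgb4 and Itgb5). Of all tested genes, 35.4% were called with IL-33 and 47.6% with IL-4. Their median log2 changes were 0.79 and 1.25, where the medians over all tested genes were 0. The fitted changes of the rarer ones weigh on these medians: 10 of the 12 averaged under 2 log2 CPM. Itgb3, the beta chain that pairs with alpha v, fell from 19.3, 15.3 and 15.7 CPM to 13.7, 10.7 and 11.2 CPM with IL-33 (log2 -0.49 ± 0.15, adjusted p = 0.0118) and rose to 75.5, 91.6 and 80.6 CPM with IL-4 (4.94-fold, log2 2.30 ± 0.14, adjusted p = 9.64e-12). Itgb5, another partner of alpha v, averaged 359 CPM without cytokine, 273 CPM under IL-33 and 300 CPM under IL-4, and both falls were called. Of the rarer subunits, 3 were picked after their values had been seen. Itga1, the alpha chain of a collagen receptor, went from 0.328, 0.545 and 0.476 CPM to 4.94, 7.49 and 13 CPM with IL-33 (18.6-fold). Itgb8, a further partner of alpha v, rose from 0.957, 0.882 and 0.827 CPM to 9.23, 9.8 and 8.94 CPM with IL-4 (10.5-fold). Itga9 fell from 4.54, 5.76 and 4.86 CPM to 0.474, 0.75 and 0.51 CPM with IL-4 (8.63-fold).

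Of 25 integrin ligands, 15 were tested. With IL-33, 8 rose and 1 fell, and with IL-4, 4 rose and 4 fell, where 35.4% and 47.6% of all tested genes were called. The IL-4 count was near the background. Fn1 encodes fibronectin, bound by alpha 5 beta 1 and alpha 4 integrins. It was at 3.85, 11.7 and 8.19 CPM without cytokine, at 45.3, 102 and 169 CPM with IL-33 (13.2-fold, adjusted p = 1.1e-06) and at 215, 414 and 334 CPM with IL-4 (40.3-fold, adjusted p = 4.59e-09). Its 3 groups did not overlap. Cdh1 (E-cadherin, the ligand of the alpha E beta 7 integrin), picked after its values had been seen, was at 0.246, 0.182 and 0.175 CPM without cytokine, at 2.48, 2.85 and 3.21 CPM with IL-33 and at 25.9, 32 and 21.1 CPM with IL-4 (log2 3.81 ± 0.32 and 7.02 ± 0.29). Itgae, the alpha E chain itself, held 8, 35 and 21 counts in these groups. C3, the source of the fragment iC3b bound by Mac-1, rose 11.9-fold with IL-33 and 2.97-fold with IL-4. Icam1, the ligand of LFA-1 and Mac-1, went in opposite directions, 1.59-fold up with IL-33 and 1.53-fold down with IL-4. Thbs1, thrombospondin, likewise rose 2.17-fold with IL-33 and fell 3.62-fold with IL-4. Spp1, osteopontin, rose 1.19-fold with IL-33 and fell 1.62-fold with IL-4, while Mfge8, a bridging ligand of alpha v integrins, rose 1.25-fold and 1.93-fold. Icam2 fell 1.27-fold with IL-33. Vcam1, the ligand of alpha 4 beta 1, fell 2.81-fold with IL-4, but from a low mean of 0.776 CPM to 0.277 CPM.

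Genes that switch integrins to or from the active state went both ways. Of 16 tested, 4 rose and 4 fell with IL-33, and 3 rose and 6 fell with IL-4, where 35.4% and 47.6% of all tested genes were called, so that the IL-4 count was near the background. These genes had median log2 changes of 0.08 and -0.03. Tln1 (talin, which activates integrins by binding the beta tail) fell 1.25-fold with IL-33, and its log2 change with IL-4 was 0.00. Fyb, an adaptor in integrin activation, rose 1.29-fold with IL-33 and fell 2.32-fold with IL-4. Rasgrp4, an exchange factor for Ras proteins, followed the same course at 1.2-fold up and 2.16-fold down. Rassf5 (RAPL, which links Rap1 to LFA-1) fell 1.28-fold and 1.85-fold. Cyth1 (cytohesin, a binder of the beta 2 tail) rose 1.37-fold and 1.66-fold, and Dok1, an inhibitory adaptor, fell 1.23-fold with IL-33. With IL-4, Flna (filamin) rose 1.17-fold and Rapgef1, an exchange factor for Rap1, 1.12-fold. Also called were Rap1b, 1.09-fold up with IL-33 and 1.26-fold down with IL-4, and Apbb1ip (RIAM, which links Rap1 to talin), 1.14-fold and 1.58-fold down.

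In the adhesion complex and its kinases, 22 genes were tested: 9 rose and 6 fell with IL-33, and 9 rose and 8 fell with IL-4, where 35.4% and 47.6% of all tested genes were called. The Src-family kinases did not move as a group. Src rose 6.3-fold with IL-33 and 3.89-fold with IL-4, from a mean of 2.38 CPM. Fgr rose 5.23-fold with IL-33, and with IL-4 its log2 change was -0.47 ± 0.21 (adjusted p = 0.0683). Lyn fell 1.18-fold with IL-33 and 1.43-fold with IL-4. Zyx (zyxin), a protein of adhesion sites, rose 1.64-fold and 2.5-fold, and Actn1 (alpha-actinin) rose 2.51-fold with IL-4. Ptk2b (Pyk2), the adhesion kinase of leukocytes, fell 1.48-fold and 1.98-fold, and the docking protein Nedd9 fell 2.21-fold and 1.47-fold. Actn4 fell 1.27-fold with IL-33, and Parvg fell 1.48-fold with IL-4.

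All 15 genes of proteins that sit beside integrins in the membrane were tested: 6 rose and 4 fell with IL-33, and 8 rose and 4 fell with IL-4, where 35.4% and 47.6% of all tested genes were called. Plaur, the urokinase receptor that associates with Mac-1, rose 1.99-fold with IL-33 and 3.93-fold with IL-4. Cd44, the hyaluronan receptor, rose 1.41-fold and 2.25-fold, and Bsg (CD147) rose 1.49-fold with either cytokine. The directions of the tetraspanins differed under both cytokines. Cd9 fell 1.16-fold with IL-33 and rose 2.11-fold with IL-4, Cd82 fell 1.16-fold and 1.74-fold, Cd37 fell 1.31-fold and 1.61-fold, and Tspan4 fell 1.58-fold with IL-4. Cd151, a partner of laminin-binding integrins, rose 1.34-fold and 1.75-fold, and Cd53 rose 1.15-fold with IL-33.

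**Figure D4:**
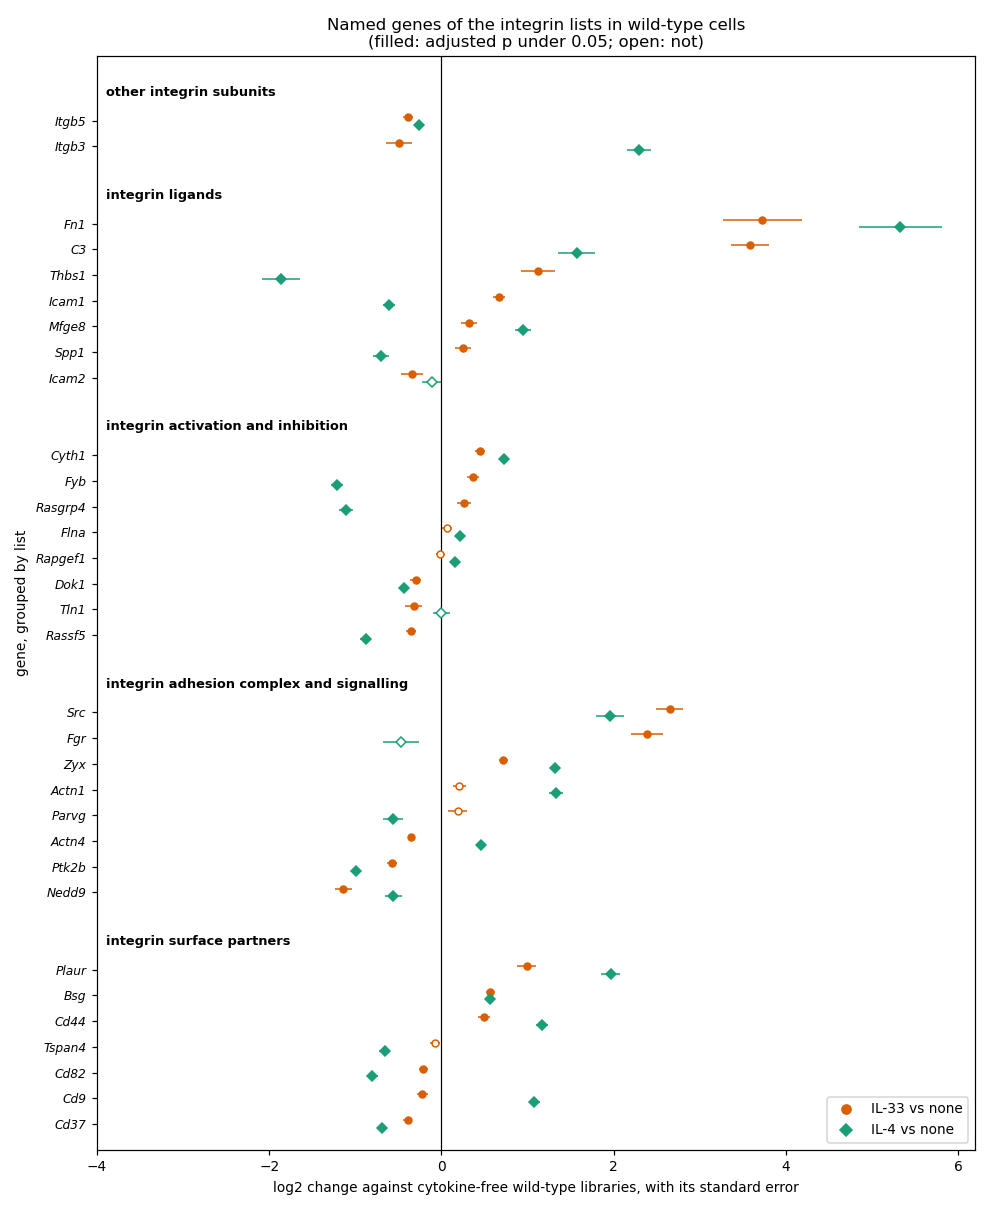
Log2 change with its standard error of the named genes from 5 integrin lists in wild-type cells, against cytokine-free libraries, for IL-33 (circles) and IL-4 (diamonds); filled symbols passed the test. Of the genes drawn, which average at least 2 log2 CPM, Fn1 shows the largest rises (3.73 for IL-33, 5.33 for IL-4), and Thbs1, Icam1, Fyb, Rasgrp4 and Itgb3 lie on opposite sides of 0 under the 2 cytokines.

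The 5 lists held no called gene for IL-33 in ST2KO-labelled cells, where 0% of all tested genes were called. In floxed-labelled cells with IL-33, the ligand list had 8 genes higher and 1 lower, the adhesion complex 10 and 5, the membrane partners 5 and 4, the activation list 4 and 4, and the other subunits 1 and 4, where 33.4% of all tested genes were called. A difference between the floxed-labelled and wild-type responses was called for 1.22% of all tested genes. It was called for 1 of 15 ligands, Spp1, with a higher response (log2 0.78 ± 0.13, adjusted p = 0.00284). It was also called for 1 of 12 other subunits, Itga9, with a lower response (log2 -1.71 ± 0.40, adjusted p = 0.0366). Spp1 was at 1822, 1745 and 1688 CPM in floxed-labelled cells without cytokine and at 3719, 3263 and 3739 CPM with IL-33, and in wild-type cells at 2683, 2446 and 2151 CPM and at 2882, 2727 and 3036 CPM. No gene of the remaining 3 lists, 53 tested genes together, was called for such a difference, which is near that share.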

How the data were processed

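RNA from 21 cultures was sequenced as 150-base pairs on a NovaSeq instrument. The submitters' processing notes name GRCm38 (mm10) and the tools DESeq2 1.22.2, HISAT2 2.0.5 and HTSeq 0.6.1; annotation and strand setting are not given in the sources used here. The deposited values were read counts per gene, not normalized by the authors according to their whole-number values. Here counts were tested with edgeR 4.0.16 (R 4.3.3): filterByExpr over the 7 groups, TMM, 1 quasi-likelihood fit of all 21 libraries, Benjamini-Hochberg adjustment within each of 11 comparisons over 14473 genes, and a call at an adjusted p under 0.05. Scripts were tested on simulated data. Alternatives were DESeq2 1.42.0, limma-voom 3.58.1, other scalings and filters, a replicate block, fits on the compared groups, and leaving out each library. Exon lengths came from GENCODE M21. Named genes were the 10 subunits, up to 3 rises and 3 falls per list among called genes averaging at least 2 log2 CPM, and the 2 genes most alike to each subunit. Some called genes outside that rule were named as well, among them Itga1, Itgb8, Itga9, Cdh1, Vcam1, Rap1b, Apbb1ip, Lyn, Cd151 and Cd53. Members and lists were chosen with earlier results of these data known, so counts over them are descriptions. Between 2 libraries of a group, chi-square per degree of freedom was 6.4 to 23.9, so none was a repeat of another.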

Additional observations from a re-analysis of the deposited data

Results flagged for a closer look

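The IL-33 response differed between ST2KO-labelled and wild-type cells, by the interaction term of the edgeR fit, for 8 of the 10 subunits. Of all tested genes, 22.7% were called for such a difference. The differences, ST2KO-labelled minus wild type on the log2 scale, were -1.31 for Itgax, -1.11 for Itgam, -0.91 for Itgal and -0.18 for Itgb1, all of which rose with IL-33 in the wild type. They were 0.90 for Itgb7, 0.53 for Itga4, 0.47 for Itga6 and 0.38 for Itgav, all of which fell there. Those of Itgav and Itgb1 lay near the threshold and lost their calls in several alternative settings. The groups hold 3 libraries each, which is too few for a search for single outlying libraries.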

How the results depend on the processing

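Over 1660 recomputed values of single subunits, 40 lost their call and 31 gained one. Counts of called subunits changed by over 1.5 times in 4 comparisons. ST2KO-labelled against wild-type cells without cytokine (2 called) gave 6 with no filter on low counts, 1 with a stricter filter and 1 in a fit on the compared groups only, and between 0 and 2 when single libraries were left out. Floxed-labelled against wild-type cells without cytokine (2 called) gave 4 with no filter and between 0 and 2 without single libraries. With IL-33 (1 called) that comparison gave 4 with no filter, 2 on the compared groups only, and between 1 and 4 without single libraries. The difference between the floxed-labelled and wild-type responses (0 called) gave 1 with no filter. The unfiltered fit took in 24667 genes and set the spread of Itgax to 0.562, against 9.77 in the reported fit, because it gave each gene's own spread no weight. All calls of the unfiltered fit rest on that.

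The replicate numbers did not meet the rule for pairing, a correlation over 0.1 in every pair: over 63 pairs of same-numbered libraries, deviations from group means correlated between -0.04 and 0.11, 2 of them over 0.1, although 18 of 21 libraries correlated best with their own number. With a replicate block, 3 subunits rather than 1 were called between floxed-labelled and wild-type cells with IL-33 (Itgax and Itgb7 besides Itgb2), Itgb1 was gained for IL-33 in floxed-labelled cells (adjusted p = 0.0406), Itga6 (lower, 0.0472) between cytokine-free and Itgb2 (higher, 0.0215) between IL-33-treated ST2KO-labelled and wild-type cells, and the other counts stayed within 1.5 times. Over all genes, ST2KO-labelled against wild-type cells without cytokine gave 196 calls, 438 by DESeq2, 590 with the block and 875 unfiltered, and the floxed-labelled response difference gave 176, 384, 355 and 555. Unfiltered, IL-33 in ST2KO-labelled cells called 70 genes. Upper-quartile scaling lowered the share of rises among called genes from 51.1 to 40.1% for IL-33 in floxed-labelled cells. Itgal, with 91 to 144 counts per IL-4 library, was the least deeply counted subunit. The cause of the other changes was not tested.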
